A study of Rattus norvegicus with 12 samples.

Results

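Smooth muscle contractile genes encode the actin, myosin and tropomyosin forms, and the actin-binding proteins, that give smooth muscle cells and activated hepatic stellate cells their contractile apparatus. The 10 genes described here are Acta2, Actg2, Tagln, Cnn1, Myl9, Tpm1, Tpm2, Myh11, Des and Lmod1. They were found by an exact match of the gene name on the non-control probes of the array, which gave 17 of 45598 probes and 10 of 36172 gene names. RNA of rat liver cells (strain F344) was measured on 12 single-colour Agilent arrays, with 3 in each of 4 groups. The groups LN111, LN511 and Mat held small hepatocytes, which are hepatocytic progenitor cells. They had been sorted for the surface protein CD44 on day 9, expanded on Matrigel in serum-free medium with nicotinamide, dexamethasone, EGF and insulin-transferrin-selenium, and kept at passage 2 for 3 h on a coating of laminin-111 in LN111, of laminin-511 in LN511 and of Matrigel in Mat. The control group, MH, was mature hepatocytes taken straight from livers without culture. Age and sex are not given in the sources used here, and the labels do not tell whether the replicates of a group are different animals or dishes. The p-values therefore rest on how far these samples vary, and that variation may be technical.

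Acta2 and Actg2 are the vascular and enteric smooth muscle forms of actin. Myh11 is the smooth muscle myosin heavy chain and Myl9 a regulatory light chain that is phosphorylated when the cell contracts. Tpm1 and Tpm2 are tropomyosins, coiled coils that lie along the actin filament. Tagln (transgelin), Cnn1 (calponin) and Lmod1 (leiomodin) bind actin, and Des (desmin) forms the intermediate filaments of muscle and, in rat liver, of stellate cells. Acta2 is the usual marker of stellate cell activation, and many of these promoters are driven by serum response factor (SRF) and its cofactors, the myocardin-related transcription factors, which are released when actin is assembled.

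Sequences of tropomyosin probes are shown first. The isoform names are those the file gives, and which other isoforms a probe reads was not tested. The array has 4 probes for Tpm1 and 3 for Tpm2, and the closest of these between the genes are set side by side first, with capitals marking the bases that are identical where they align (24 of 28, or 85.7%). The Tpm1 probe is listed at chr8:71340060-71340374 and the Tpm2 probe at chr5:59997963-59998563, both on the minus strand, in the array file's coordinates (rat build RGSC 3.4 per the file header). Both spans are longer than the 60-base probe.
Tpm1 A_44_P1108220: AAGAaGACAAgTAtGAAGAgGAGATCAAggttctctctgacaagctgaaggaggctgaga
Tpm2 A_44_P1042783: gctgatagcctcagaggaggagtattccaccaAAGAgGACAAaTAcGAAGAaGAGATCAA
The next pair are Tpm1 probes that share 58 of 60 bases (capitals), so they are close to a repeat measurement of the same stretch.
Tpm1 A_64_P021591: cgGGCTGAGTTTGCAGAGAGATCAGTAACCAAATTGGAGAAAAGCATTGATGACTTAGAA
Tpm1 A_44_P1086170: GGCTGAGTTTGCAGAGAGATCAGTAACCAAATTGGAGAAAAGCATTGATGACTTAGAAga
The file assigns the Tpm2 probe above and A_43_P10874 to isoform Tpm2.1 and the last Tpm2 probe to Tpm2.2, and these are printed without capitals.
Tpm2 A_43_P10874: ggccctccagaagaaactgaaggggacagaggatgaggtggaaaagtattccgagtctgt
Tpm2 A_64_P144482: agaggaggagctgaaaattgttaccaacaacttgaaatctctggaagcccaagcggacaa
Myl9, Tagln and Myh11 carry the results along with Acta2 and are read by a single probe each. The Myh11 probe is listed at chr10:775993-776052 on the plus strand.
Tagln A_44_P360772: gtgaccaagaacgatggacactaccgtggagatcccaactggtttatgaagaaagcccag
Myl9 A_44_P365436: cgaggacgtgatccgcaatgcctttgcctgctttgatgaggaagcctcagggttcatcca
Myh11 A_64_P030190: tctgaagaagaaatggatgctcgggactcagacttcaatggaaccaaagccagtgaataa

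Values are log2 signals relative to the 75th percentile of the same array, so a value of 0 is a signal at that percentile, and levels are compared between arrays for the same probe only. Between 52.18% and 62.75% of the 58717 non-control spots were well above background (Agilent's own mark) on each array, and 0 spots were saturated. LN111 replicate 3 had 1126 outlier spots and the other arrays 350 to 499. All 3 LN111 and all 3 LN511 arrays and Mat replicate 3 were on 1 slide, and Mat replicates 1 and 2 and all 3 MH arrays on another. Hepatocyte markers were present in the cultured cells, with 9 of 10 well above background on every array of each coating. Of the 17 contractile probes, 16 passed the filter, which asked for 1 or more groups with all 3 arrays well above background, and the second Lmod1 probe, A_64_P103615, was not well above background on any array. Cnn1 and the other Lmod1 probe passed through LN111 alone, so the filter favoured their being higher there. Differences are given as log2 ± SE of the limma fit, and a probe was called at a Benjamini-Hochberg adjusted p under 0.05 over all probes tested.

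**Figure D1:**
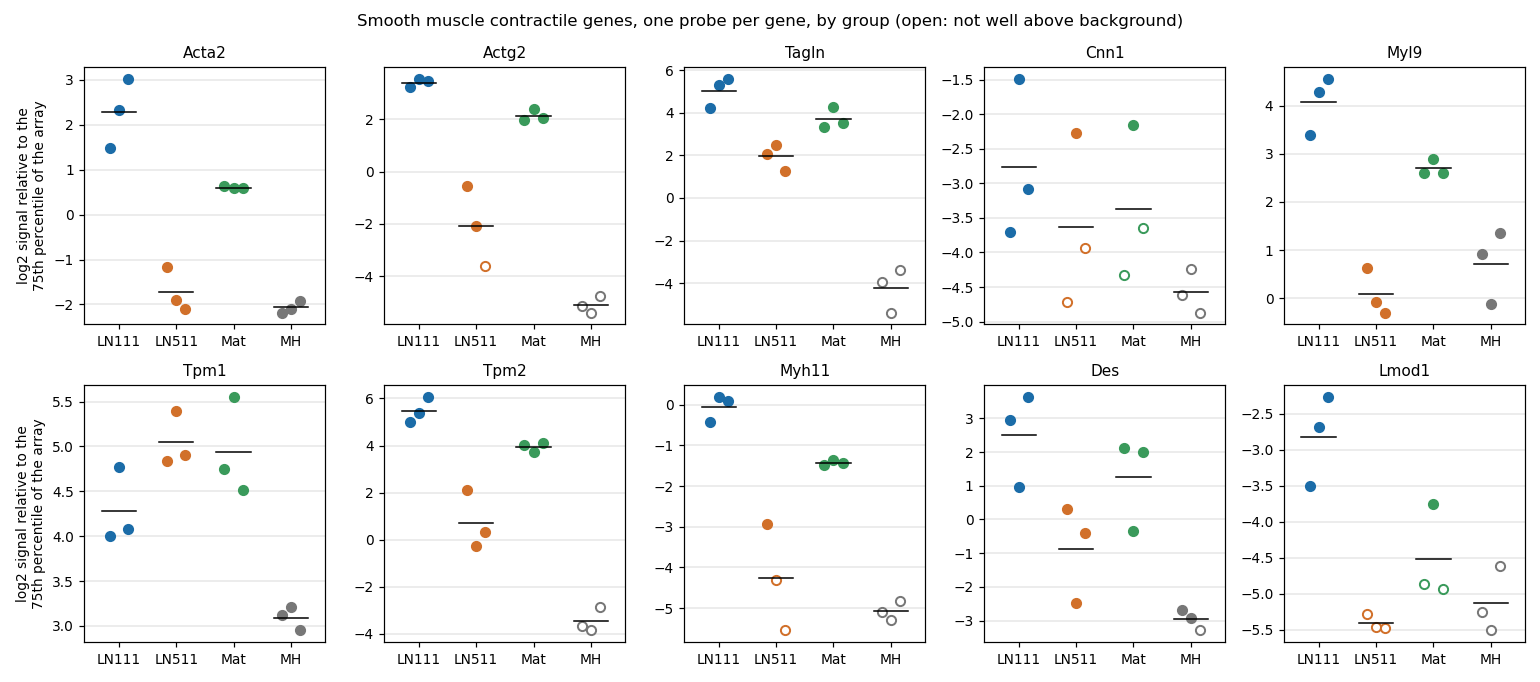
Levels of the 10 genes, 1 probe each (that of highest mean signal), on the 12 arrays. The vertical axis of each panel is log2 signal relative to the array's 75th percentile, points are arrays, lines are group means and open points were not well above background. In Acta2, Myl9, Actg2 and Myh11 the LN111 arrays are highest, Mat lies between, and LN511 lies well below both. Tpm1 is the exception, with LN511 above LN111.

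The widest contrast among the coatings was between the laminins. On LN111, 10 of the 16 probes tested were higher than on LN511, where 6.96% of all 22345 probes were called higher, and 3 were lower, where 8.46% of all probes were called lower. The 10 higher probes belong to Acta2, Actg2, Tagln, Myl9, Tpm2, Myh11 and Lmod1, and the 3 lower ones are all of Tpm1. The Lmod1 probe was tested only because it passed the filter through LN111, so its call as higher there adds no support. The median difference was 3.68 over the member probes and -0.03 over all probes. In RNA from whole dishes, fewer cells of a type and less RNA per cell cannot be told apart.

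Of the actins, Acta2 read 1.48, 2.33 and 3.01 on the LN111 arrays, against -1.17, -1.91 and -2.10 on the LN511 arrays. The groups did not overlap, and the LN511 arrays stood beside the MH arrays (-2.18, -2.09 and -1.93). The LN111 minus LN511 difference in Acta2 was 4.0 ± 0.38 log2 (n = 3 each, limma adjusted p = 0.00224), or 16-fold. Actg2 read 3.23, 3.54 and 3.46 on LN111 and -0.53, -2.08 and -3.6 on LN511 with probe A_43_P13911. The LN111 arrays lay within a narrow band and the LN511 arrays were spread widely, the lowest (replicate 3) not being well above background. The Actg2 difference was 5.48 ± 0.64 log2 (limma adjusted p = 0.0033). The other Actg2 probe, A_64_P071495, which overlaps the first, gave 6.27 ± 1.06 log2, the largest of the 22345 fitted differences in this comparison. With every signal raised to the lowest one well above background, the A_64_P071495 value was 5.53.

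Of the myosin subunits, Myl9 read 3.38, 4.28 and 4.55 on LN111, against 0.63, -0.08 and -0.30 on LN511. All arrays were well above background, the groups were far apart, and Myl9 had the smallest adjusted p of the members in this comparison (difference 3.98 ± 0.34 log2, limma adjusted p = 0.002). Myh11 read -0.42, 0.19 and 0.09 on LN111, against -2.93, -4.31 and -5.55 on LN511. Only LN511 replicate 1 of those 3 was well above background for Myh11, so its difference of 4.22 ± 0.56 log2 (limma adjusted p = 0.00414) rests in part on signals near background. With signals raised to background the Myh11 difference was 3.32 log2 (limma adjusted p = 0.00103).

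Of the actin-binding proteins, Tagln read 4.24, 5.30 and 5.59 on LN111, against 2.06, 2.51 and 1.29 on LN511. Tagln was well above background on every cultured array, with a difference of 3.09 ± 0.44 log2 (limma adjusted p = 0.00483). Lmod1 read -3.51, -2.69 and -2.27 on LN111, against -5.28, -5.46 and -5.47 on LN511. Since none of the LN511 arrays was well above background, the Lmod1 difference is a bound, at least 1.62-fold higher on LN111 (limma adjusted p = 0.00556), where the bound sets the LN111 mean against a floor on each LN511 array, namely the dimmest signal marked as well above background there, or the Lmod1 signal if brighter. The adjusted p is that of the unraised signals, and the Lmod1 call was lost with signals raised to background (0.69 log2, limma adjusted p = 0.186) and with normexp background correction (0.34 log2, limma adjusted p = 0.291). Cnn1 (0.88 ± 0.83 log2, limma adjusted p = 0.513) and Des (3.38 ± 0.99 log2, limma adjusted p = 0.0561) did not pass.

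The tropomyosin genes went opposite ways. Tpm2, by probe A_44_P1042783, read 5.02, 5.37 and 6.06 on LN111, against 2.12, -0.29 and 0.34 on LN511. The LN111 arrays were the highest of the series for this probe, and the difference was 4.76 ± 0.57 log2 (limma adjusted p = 0.00341). The other Tpm2 probes gave 4.60 ± 0.56 and 4.03 ± 0.62 log2. Tpm1, by the probe A_44_P1108220 that is alike in sequence, read 1.82, 2.67 and 1.76 on LN111, against 3.40, 3.87 and 3.59 on LN511. Every LN511 array was above every LN111 array for this Tpm1 probe, at a difference of -1.53 ± 0.31 log2 (limma adjusted p = 0.0144). The overlapping pair A_64_P021591 and A_44_P1086170 gave -1.36 ± 0.31 and -1.34 ± 0.32 log2 (limma adjusted p = 0.0223 and 0.0285). The probe A_44_P1086155, assigned by the file to isoform Tpm1.6, gave -0.76 ± 0.32 log2 (limma adjusted p = 0.152). The Tpm1 direction held in unscaled signals (-1.16 to -0.39), but no Tpm1 probe was called there, where the median over all probes was 0.343. Without 1 array the 3 Tpm1 calls became 1 (without LN111 replicate 1, LN111 replicate 3 or LN511 replicate 3) or 0 (without LN511 replicate 2). Without LN511 replicate 1 the call of A_44_P1086170 was lost (limma adjusted p = 0.0522), and all 3 stood only without LN111 replicate 2. In these fits 10 or 11 member probes stayed called as higher.

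**Figure D2:**
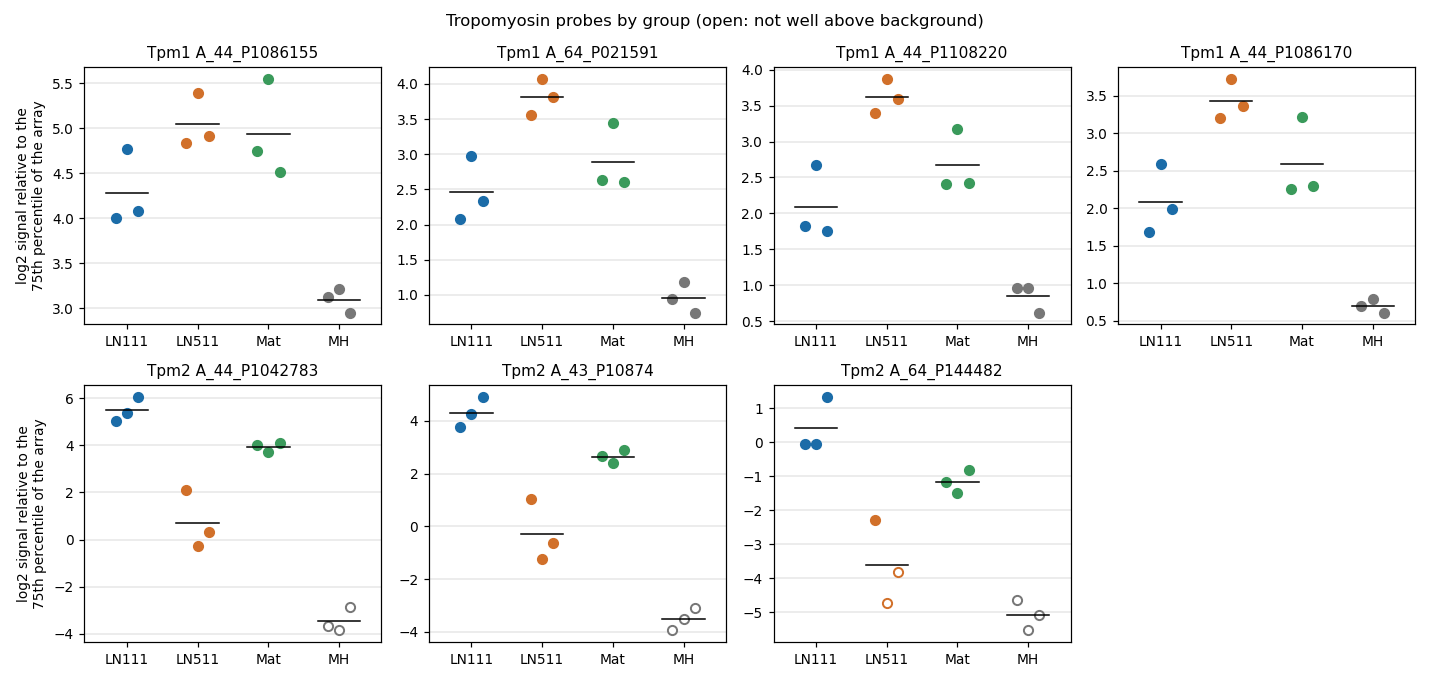
The 4 Tpm1 probes (upper row) and 3 Tpm2 probes (lower row) on the 12 arrays, as log2 signal relative to the array's 75th percentile. Points are arrays, lines are group means and open points were not well above background. The mean of each Tpm1 probe is highest on LN511, by the least for A_44_P1086155, while the mean of each Tpm2 probe is highest on LN111 and lowest in MH.

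Against Mat, on which the cells had been expanded, LN511 had 7 lower probes of 16 (1.36% of all probes were called lower) and 0 higher (4.71% of all probes). The 7 were Acta2, both Actg2 probes, Myl9, Myh11 and the Tpm2.1 probes, and the member median was -2.22, against 0.01 over all probes. Acta2 read -1.17, -1.91 and -2.10 on LN511, against 0.63, 0.58 and 0.59 on Mat. The Mat arrays agreed closely with each other, on both slides, and the difference was -2.32 ± 0.38 log2 (limma adjusted p = 0.0124). Myl9 differed by -2.61 ± 0.34 log2 (limma adjusted p = 0.00479) and Actg2 by -4.21 ± 0.64 log2 (limma adjusted p = 0.00881). Actg2 read 1.98, 2.39 and 2.05 on the Mat arrays, all above the LN511 arrays. Tpm2 probe A_44_P1042783 differed by -3.22 ± 0.57 log2 (limma adjusted p = 0.0156) and Myh11 by -2.84 ± 0.56 log2 (limma adjusted p = 0.0244). With 1 of 3 LN511 arrays well above background for Myh11, its value was -1.94 log2 with signals raised to background (limma adjusted p = 0.00286), and with normexp it was -0.77 log2 and not called (limma adjusted p = 0.0602).

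Tagln, at -1.76 ± 0.44 log2, did not pass between LN511 and Mat (limma adjusted p = 0.0593), although every LN511 array was below every Mat array (3.33, 4.27 and 3.54). The Tpm1 probes gave 0.11 to 0.96 log2 for LN511 minus Mat and did not pass. In unscaled signals those Tpm1 values were -0.86 to -0.01, where the median over all probes was -0.963. Deviations from the group means set apart replicate 2 only, so a pairing by replicate number is not established for LN511 and Mat. LN511 replicate 3 correlated at 0.117 with Mat replicate 3 and at 0.194 with Mat replicate 1. LN511 replicate 1 correlated at 0.529 with Mat replicate 1 and at 0.527 with Mat replicate 3. With the replicate number as a block over the 9 cultured arrays, 10 probes were lower and 3 were higher. The added calls were Tagln (-1.76 ± 0.37 log2, limma adjusted p = 0.0313), Des (-2.12 ± 0.25 log2, limma adjusted p = 0.00505), Tpm2 probe A_64_P144482 (-2.45 ± 0.54 log2, limma adjusted p = 0.0364) and the 3 Tpm1 probes other than A_44_P1086155 (0.84 to 0.96 log2, higher on LN511).

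The calls between LN511 and Mat were not kept with the slide as a block, and they depended on single arrays. With that block 0 member probes were called, and of all 22345 probes 3 were called lower and 52 higher. Acta2 was then at -2.31 ± 0.58 log2 (limma adjusted p = 0.16) and Myl9 at -2.51 ± 0.51 log2 (limma adjusted p = 0.0913). Without the block these differences were -2.32 and -2.61 log2. Within the slide that holds Mat replicate 3 alone with the LN511 arrays, Acta2 was at -2.31 and Myl9 at -2.51 log2. These equal the blocked values by construction, since the other slide holds no cultured arrays but Mat replicates 1 and 2. Without 1 array the count of lower probes was 8 (without LN511 replicate 1), 3 (without LN511 replicate 2), 5 (without LN511 replicate 3), 2 (without Mat replicate 1), 4 (without Mat replicate 2) or 3 (without Mat replicate 3). Myl9 and Actg2 probe A_43_P13911 stayed called in all 6 of these fits, and Acta2 in 4.

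**Figure D3:**
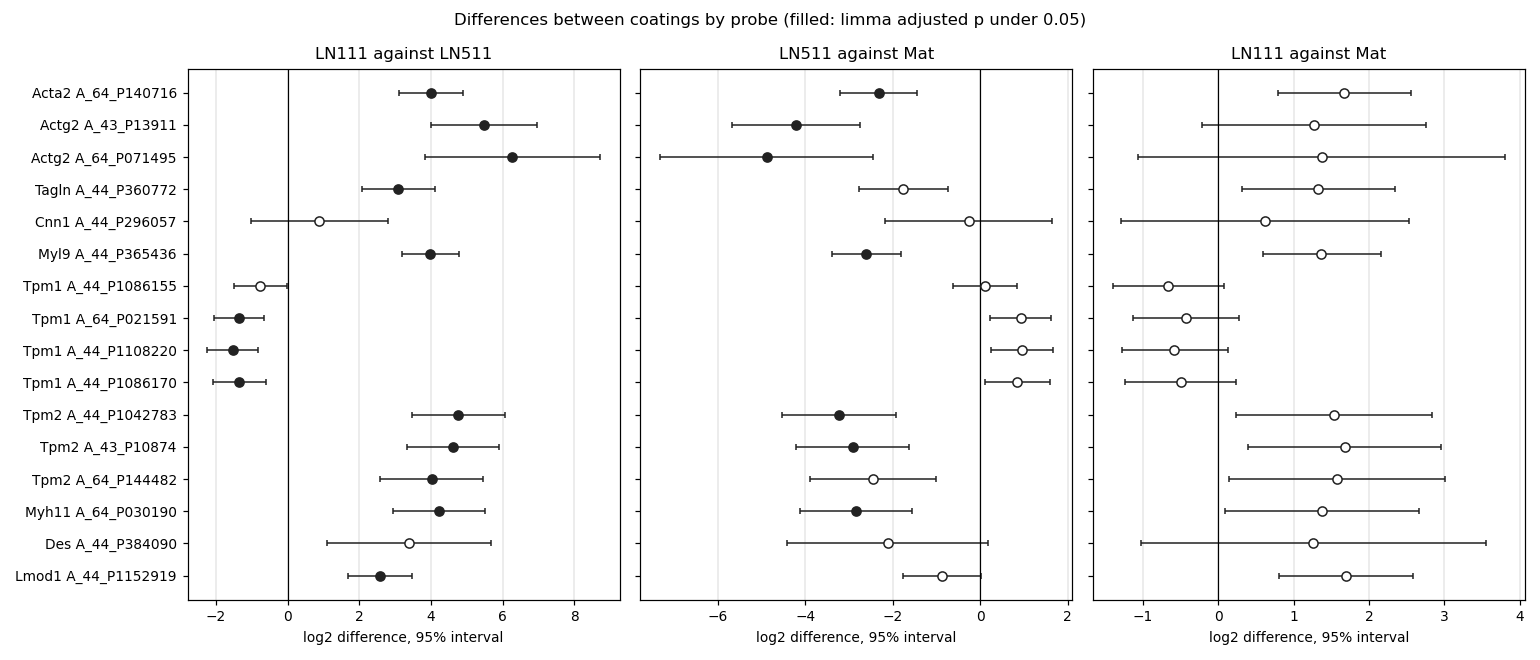
Log2 differences (points) with 95% intervals of the limma fit for the 16 member probes tested, in 3 comparisons of coatings; filled points have an adjusted p under 0.05. Most probes lie right of 0 for LN111 against LN511 (10 called) and left of 0 for LN511 against Mat (7 called), and the 4 Tpm1 probes lie on the other side.

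No probe was called between LN111 and Mat. Of 16 member probes 0 were called in either direction, and over all 22345 probes 0% were called in limma. At an unadjusted p under 0.05 there were 8 of 16 member probes, against 12.3% of all probes. The member median was 1.35, against 0.01 over all probes, and 12 probes were above 0 while the 4 Tpm1 probes were below it. Lmod1, 1 of the 8, and Cnn1 passed the filter through LN111 alone, so their direction adds no support. Acta2 differed by 1.67 ± 0.38 log2 between LN111 and Mat (95% interval 0.79 to 2.56, limma adjusted p = 0.323), Myl9 by 1.37 ± 0.34 log2 (interval 0.59 to 2.16, limma adjusted p = 0.323) and Lmod1 by 1.70 ± 0.39 log2 (interval 0.81 to 2.59, limma adjusted p = 0.323). Only 1 Mat array was well above background for Lmod1, and with signals raised to background its difference was 1.19 log2. Every LN111 array was above every Mat array for Acta2, Myl9, both Actg2 probes, the Tpm2 probes, Myh11 and Lmod1, but not for Tagln, Des or Cnn1. The intervals of Actg2 (-0.21 to 2.75 for probe A_43_P13911), Des (-1.03 to 3.55) and Cnn1 (-1.29 to 2.53) included 0.

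Set against freshly isolated MH, the 3 coatings differed in how many members were higher. On LN111, 15 of 16 probes were higher (31.7% of all 23656 probes were called higher), on LN511 9 of 16 (33.2%) and on Mat 14 of 16 (31.1%). None of the 16 was lower on any coating, where 33.9%, 33.7% and 34.9% of all probes were called lower on LN111, LN511 and Mat in limma. At an unadjusted p under 0.05, 16, 10 and 14 member probes differed from MH on LN111, LN511 and Mat, against 68.5%, 69.9% and 69.0% of all probes. Lmod1 and Cnn1 passed the filter through LN111 alone, so their place in the LN111 counts adds no support. The member medians were 4.68, 2.12 and 3.16 on LN111, LN511 and Mat. Over the mean of the coatings, 15 of 16 probes were higher (35.1% of all probes) and 0 lower (36.7% of all probes), with a median of 2.80, and Cnn1 was the one that did not pass. With the slide as a block, Des (3.06 log2, limma adjusted p = 0.0737) and Lmod1 (1.36 log2, limma adjusted p = 0.0621) were no longer called over the mean of the coatings; all LN111 and LN511 arrays lay on another slide than MH. These comparisons share the MH arrays.

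Tagln was not well above background on any MH array (-3.97, -5.39 and -3.39), and it was at least 292-fold higher on LN111 (limma adjusted p = 2.66e-07), at least 34.3-fold on LN511 (limma adjusted p = 4.29e-06) and at least 116-fold on Mat (limma adjusted p = 7.65e-07). Tpm2 by probe A_44_P1042783 was at least 390-fold, at least 14.4-fold and at least 135-fold higher in the same order (limma adjusted p = 3.37e-07, 6.83e-05 and 1.2e-06). Actg2 by probe A_43_P13911 was at least 94.3-fold, at least 2.11-fold and at least 39.1-fold higher (limma adjusted p = 7.65e-07, 0.00104 and 2.46e-06). By these probes the genes were called higher than in MH on every coating, with the smallest bound on LN511. For Actg2 on LN511 that call was lost with signals raised to background (1.09 log2, limma adjusted p = 0.117) and with normexp (0.64 log2, limma adjusted p = 0.0887). The other Actg2 probe, A_64_P071495, did not pass on LN511 (2.15 ± 0.98 log2, limma adjusted p = 0.0755). Myh11 was at least 8.58-fold higher on LN111 and at least 3.3-fold on Mat (limma adjusted p = 1.14e-05 and 0.000115), and did not pass on LN511 (limma adjusted p = 0.183).

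Acta2 and Myl9 were measured well above background on every MH array, so their differences have no bound. Acta2 was 4.34 ± 0.35 log2 higher than in MH on LN111 (limma adjusted p = 2.25e-06) and 2.67 ± 0.35 log2 higher on Mat (limma adjusted p = 7.39e-05). On LN511 the Acta2 difference from MH was 0.34 ± 0.35 log2 (95% interval -0.43 to 1.12, limma adjusted p = 0.403), and the arrays overlapped. The order of the Acta2 levels was LN111, Mat, LN511 and MH, of which LN511 and MH did not differ beyond their spread. Myl9 was 3.36 ± 0.41 log2 higher on LN111 and 1.99 ± 0.41 log2 higher on Mat (limma adjusted p = 4.82e-05 and 0.00169). On LN511 Myl9 was at -0.63 ± 0.41 log2 relative to MH (interval -1.54 to 0.29, limma adjusted p = 0.204). Without MH replicate 2, whose Myl9 level (-0.13) was below the other MH arrays (0.91 and 1.35), that value was -1.05 and was called as lower (limma adjusted p = 0.0342).

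Tpm1 ran against this order. Relative to MH, probe A_44_P1108220 was 2.78 ± 0.29 log2 higher on LN511, 1.82 ± 0.29 on Mat and 1.24 ± 0.29 on LN111 (limma adjusted p = 1.3e-05, 0.000263 and 0.00308). All 4 Tpm1 probes were higher than in MH on each coating. Lmod1 was not well above background on any MH array. On LN111 it was at least 1.25-fold higher (limma adjusted p = 0.000422), but this call was lost with signals raised to background (0.32 log2, limma adjusted p = 0.367) and with normexp (0.02 log2, limma adjusted p = 0.924), and on LN511 and Mat Lmod1 did not pass. Within the slide that holds Mat replicates 1 and 2 and all MH arrays, Acta2 on Mat was 2.67 ± 0.16 log2 above MH (limma adjusted p = 0.00021). Of the calls against MH, Lmod1 over the mean of the coatings (0.87 ± 0.32 log2, limma adjusted p = 0.0288) was lost without MH replicate 1 or 2 (adjusted p = 0.0919 and 0.132) and turned to -0.34 log2 with normexp background correction. The call of Tpm2 probe A_64_P144482 on LN511 (1.48 ± 0.58 log2, limma adjusted p = 0.0437) was lost when LN511 replicates 1 and 3 or MH replicates 2 and 3 were left out singly (adjusted p = 0.163, 0.0703, 0.128 and 0.0875), with the slide as a block (0.94 log2, adjusted p = 0.511) and with signals raised to background (adjusted p = 0.999). Calls were gained on LN511 for Des without LN511 replicate 2 (2.91 log2, limma adjusted p = 0.0158) and for Myh11 without LN511 replicate 3 (1.45 log2, limma adjusted p = 0.00682), and on LN111 for Cnn1 without LN111 replicate 1 (2.29 log2, limma adjusted p = 0.0322).

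Des, Cnn1 and Tpm1 followed the replicate number. Des read 2.96, 0.96 and 3.63 on LN111, 0.30, -2.47 and -0.41 on LN511 and 2.11, -0.34 and 2.00 on Mat. Replicate 2 was the lowest array of each coating, by 1.56, 1.61 and 1.60 log2 below the means of LN111, LN511 and Mat. Cnn1 ran the other way, reading -3.70, -1.49 and -3.08 on LN111, -4.71, -2.27 and -3.93 on LN511 and -4.33, -2.16 and -3.64 on Mat. There replicate 2 was the highest of each coating, and on LN511 and Mat it was the array on which Cnn1 was well above background. The 4 Tpm1 probes were also highest on replicate 2 of each coating. For A_44_P1086170 that array was 0.5, 0.29 and 0.62 log2 above the means of LN111, LN511 and Mat. In MH, Des read -2.69, -2.91 and -3.29 and Cnn1 was not well above background. Other genes moved with replicate 2 as well. The summed signal of the 8 biliary and progenitor markers was highest on replicate 2 of each coating (242, 473 and 315 times the array's 75th percentile on LN111, LN511 and Mat) and the summed signal of the 16 stellate cell markers lowest (72.9, 23.8 and 36.8). A sum follows its brightest genes, and single markers went both ways. Krt7 (6.18, 7.59 and 6.94) and Krt19 (6.53, 6.98 and 6.61) were highest on replicate 2 of each coating, while Cldn4 was lowest there (4.07, 6.36 and 4.54). Of the stellate cell markers, Lrat was highest there (1.22, 1.76 and 1.53). The part of these lists in the Des, Cnn1 and Tpm1 values was not tested. Des on LN111 was 5.48 ± 0.89 log2 above MH (limma adjusted p = 0.000346), and with the slide as a block 4.36 ± 1.64 log2 (adjusted p = 0.0588).

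Genes that other mesenchymal cells express changed between the laminins in the same direction as the contractile genes. Of the fibroblast markers, 7 of 9 tested were higher on LN111 than on LN511 (6.96% of all probes) and 0 lower (8.46% of all probes), with a median of 3.44. Col1a1, a fibrillar collagen chain, differed by 4.26 ± 0.61 log2 (limma adjusted p = 0.00484) and Postn, a matrix protein not well above background on any LN511 array, was at least 2.15-fold higher (limma adjusted p = 0.00224). The summed signal of the 12 fibroblast markers was 466 to 783 on LN111, 26.8 to 96.4 on LN511, 217 to 335 on Mat and 9.22 to 19.7 in MH. Of the stellate cell markers, 6 of 12 tested were higher on LN111 than on LN511 (6.96% of all probes) and 0 lower (8.46% of all probes), with a median of 2.86. Hand2, 1 of the 6, passed the filter through LN111 alone, so its call as higher there adds no support. Among the 6, Cspg4, the pericyte proteoglycan NG2, differed by 3.85 ± 0.24 log2 (limma adjusted p = 0.00101) and Pdgfrb, the PDGF receptor beta chain, by 4.45 ± 0.61 log2 (limma adjusted p = 0.00429). The summed signal of the 16 stellate cell markers was 72.9 to 153 on LN111, 23.8 to 35.8 on LN511, 36.8 to 65.1 on Mat and 163 to 205 in MH, so that this list was highest in MH, in which Acta2 was lowest. All 16 were well above background on at least 1 array, though Gfap and Rgs5, named after their values were seen, were not on any LN111 array. Their part in the contractile gene result was not tested.

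Against MH the stellate cell markers had calls in both directions. Over the mean of the coatings, 1 of 14 was higher than in MH (35.1% of all probes) and 5 were lower (36.7% of all probes), among them Angptl6 and Vipr1. On LN111 alone 4 were higher (31.7% of all probes) and 4 lower (33.9% of all probes), with a median of 0.28. Neither the counts over the mean nor those on LN111 are above the share over all probes. On LN511 1 was higher (33.2% of all probes) and 8 were lower (33.7% of all probes), with a median of -2.45. On Mat 1 was higher (31.1% of all probes) and 5 were lower (34.9% of all probes). Hand2 passed the filter through LN111 alone, and Rgs5 and Vipr1 through MH alone, so the filter favoured their being higher there. The one higher over the mean was Cspg4, at least 37.8-fold (limma adjusted p = 4.73e-08), which was not well above background on any MH array. Pdgfrb was well above background in MH and gave -0.13 ± 0.46 log2 (limma adjusted p = 0.816, named after its value was seen). Between LN511 and Mat, 2 of 12 stellate markers (Cspg4 and Pdgfrb) and 5 of 9 fibroblast markers were lower on LN511 (1.36% of all probes). Between LN111 and Mat 0 of either list were called, as were 0% of all probes. Mesothelial markers summed to 44.9 to 82.4 on LN111, 52.6 to 171 on LN511, 49.0 to 121 on Mat and 2.47 to 2.59 in MH, so the coatings overlapped, and 0 of 8 were higher on LN111 than on LN511 in limma while 1 was lower (Podxl). Hepatocyte markers overlapped too, at 1160 to 2290, 1210 to 2670 and 928 to 2210 on LN111, LN511 and Mat, and were at 4810 to 6280 in MH. Biliary and progenitor markers were lower on LN111 than on LN511 in 3 of 8 cases (Cldn4, Epcam and Sox9) and higher in 0. Between the laminins 8.46% of all probes were called lower on LN111 and 6.96% higher.

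**Figure D4:**
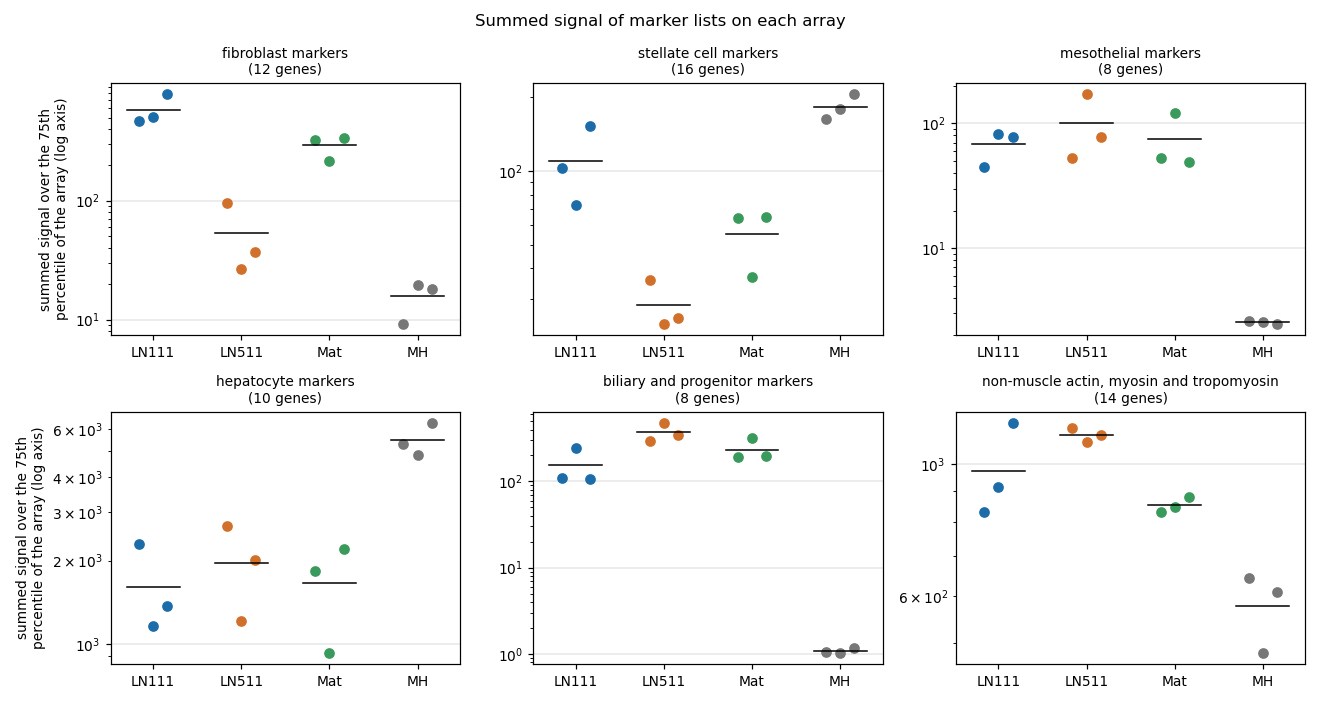
Summed signal of 6 gene lists on each array, as multiples of the array's 75th percentile on a log axis. Points are arrays and lines are group means. The fibroblast markers range over 466 to 783 on LN111 and 26.8 to 96.4 on LN511, and the stellate cell markers are highest in MH (163 to 205).

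Other smooth muscle genes moved in part. Of 18 on the array, 13 were tested between the laminins, with 6 higher (6.96% of all probes) and 1 lower (8.46% of all probes) on LN111. The higher ones included Itga8, an integrin subunit of smooth muscle and stellate cells (4.14 ± 0.80 log2, limma adjusted p = 0.0128), and Hspb6, a small heat shock protein of muscle (1.34 ± 0.19 log2, limma adjusted p = 0.00485). Ldb3, a Z-disc protein, and Pcp4, a calmodulin-binding peptide, were not well above background on any LN511 array and were at least 3.96-fold and at least 3.04-fold higher on LN111 (limma adjusted p = 0.00801 and 0.012). The lower one was Sorbs2, an adhesion adaptor (-1.45 ± 0.40 log2, limma adjusted p = 0.0447, named after its value was seen). Of the striated muscle genes 7 of 17 were not well above background on any array, and 1 of 6 tested, the troponin C gene Tnnc1, was at least 1.76-fold higher on LN111 than on LN511 (limma adjusted p = 0.00634), where it was not well above background on any array. Among the coatings, Pcp4 and Tnnc1 passed the filter only through LN111, so the filter favoured their being higher there.

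Between the laminins the general cytoskeleton and the SRF pathway had calls in both directions. In this comparison 6.96% of all probes were called higher on LN111 and 8.46% lower. Of 14 non-muscle actin, myosin and tropomyosin genes, 1 was higher on LN111 (Cnn2, 1.06 ± 0.28 log2, limma adjusted p = 0.0413) and 1 lower (Myl6, -0.94 ± 0.23 log2, limma adjusted p = 0.0285), with a median of -0.08. Their summed signal was 831 to 1170 on LN111, 1090 to 1150 on LN511, 831 to 881 on Mat and 482 to 643 in MH. Of 14 genes of the SRF pathway, 3 were lower on LN111 than on LN511. These were Srf itself (-0.94 ± 0.15 log2, limma adjusted p = 0.00743) and the SRF and YAP target genes Ctgf (-1.47 ± 0.28 log2, limma adjusted p = 0.0127) and Cyr61 (-1.31 ± 0.29 log2, limma adjusted p = 0.0213). Srf read 2.96, 2.76 and 3.12 on LN111, against 3.98, 3.69 and 3.97 on LN511, so each LN511 array was above each LN111 array, as for Tpm1. The kinase gene Rock2 was the 1 higher (0.81 ± 0.22 log2, limma adjusted p = 0.0449). Against MH, 12 of 14 genes of the SRF pathway were higher over the mean of the coatings (35.1% of all probes) and 1 lower (36.7% of all probes). Ctgf was at 8.62 ± 0.35 log2 (limma adjusted p = 1.26e-08, well above background on 2 of 3 MH arrays). Fhl2, a LIM-domain cofactor not well above background on any MH array, was at least 72.4-fold higher (limma adjusted p = 4.54e-08).

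The promoter of Acta2 is shown because it carries the sequence that SRF recognises, the CArG box. A CArG box is CC, 6 letters of A or T, and GG, and was searched on both strands in the 250 bases before the start of each gene, with 1 G or C allowed in the core. It is present in 8.08% of 33469 rat promoters (RefSeq, build GRCr8) and in 1 of the 6 members that had a promoter there (Acta2, Actg2, Tpm2, Cnn1, Tpm1 and Des), while the strict form is in 1.5% of all and 0 of the 6. Acta2 has 2 such boxes, in capitals here, that begin 134 and 84 bases before the start, and 0.693% of all promoters have 2 or more. The stretch is chr1:241172504-241172753 on the minus strand.
Acta2 promoter: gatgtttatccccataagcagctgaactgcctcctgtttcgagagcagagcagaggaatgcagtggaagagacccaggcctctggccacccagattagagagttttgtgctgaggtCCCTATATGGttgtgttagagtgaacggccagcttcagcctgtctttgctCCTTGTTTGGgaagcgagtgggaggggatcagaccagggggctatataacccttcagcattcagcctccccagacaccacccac
The MCAT motif (CATTCC, either strand) is in 12.1% of promoters and in 2 of the 6 members, Acta2 (196 bases before the start) and Tpm1 (31 bases before it), and overlaps no CArG box in either. A match describes the letters only.

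Across the 9 cultured arrays the member levels followed Acta2 to different degrees, and since the arrays share 3 coatings these values are descriptions. Pearson's r with Acta2 was 0.993 for Myl9, 0.979 and 0.974 for the Tpm2.1 probes, 0.962 for Myh11 and 0.959 for Tagln. It was 0.79 for Des and 0.318 for Cnn1, and between -0.869 and -0.594 for the 4 Tpm1 probes. The 5 named genes outside the set with the highest r over these 9 arrays were Dnase2, a lysosomal nuclease (r = 0.99), Map1a, a microtubule-associated protein (r = 0.99), Fkbp10, a collagen prolyl isomerase (r = 0.989), C1qtnf2, a secreted C1q-related protein (r = 0.987), and Pfkp, a phosphofructokinase (r = 0.986). Of these, Map1a averaged -1.53 on LN111, -5.46 on LN511 and -3.12 on Mat, while Dnase2 spanned a narrow range, with 3.78 on LN111, 3.25 on LN511 and 3.6 on Mat.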

How the data were processed

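RNA of 12 samples was measured on single-colour Agilent arrays. Per the submitters' processing notes, images were read with Agilent Feature Extraction 10.7. The deposited processed signal is a linear intensity, background-corrected by that software per the file headers, and the authors' deposited value table holds the same intensity, differing by at most 0.0072 on the log2 scale, not centred and with no direction to settle. Its column medians were 62.7 to 88.7 (LN111), 58.8 to 65.9 (LN511), 81.5 to 130.8 (Mat) and 31.8 to 37.3 (MH).

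Control spots and spots marked as outliers were dropped and replicate spots averaged per probe, which kept 45489 probes and lost 109. Log2 signals were scaled to each array's 75th percentile and tested two-sided with limma 3.58.1 in R 4.3.3 (lmFit, eBayes), MH comparisons on all 12 arrays and comparisons of coatings on 9. The number of arrays limits the precision. All member probes are accounted for. From each gene list up to 5 genes of smallest p were named. The members and the lists were chosen with earlier results of these data known. The test was tried on simulated data.

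Deviations from the group mean of same-numbered arrays correlated at 0.117 to 0.716 between LN511 and Mat, over 0.1 for every pair. On that ground, not from the labels, their replicate numbers were tried as pairs. Some arrays of unlike number correlated as much, such as LN511 replicate 3 with Mat replicate 1 (0.194), so the pairing is not established. Between the other groups at least 1 pair was lower. Alternatives were other background corrections, scalings, filters, a slide or replicate block, 1 probe per gene, the value table, and leaving out each array.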

Additional observations from a re-analysis of the deposited data

How the results depend on the processing

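Of 1936 values of single member probes under 25 alternative settings, 1823 kept their side of the threshold, 67 lost and 41 gained a call. The other 5 turned in sign, with a call before or after. The 1823 include values not called in either fit whose sign changed. With normexp, Lmod1 was at -0.34 against MH over the mean of the coatings and at -0.73 on Mat (limma adjusted p = 0.00527), and with signals raised to background at -0.30 and -0.86 (limma adjusted p = 0.0257), so 1 member was lower on Mat than in MH under each. Tpm2 probe A_64_P144482 was at -0.05 on LN511 against MH with normexp. The strict filter (well above background on every array) tested fewer probes and called 6, 6, 4 and 6 higher than MH for the mean of the coatings, LN111, LN511 and Mat, 4 lower on LN511 than on Mat and 5 higher on LN111 than on LN511. With 1 probe per gene those counts against MH were 9, 9, 4 and 8, and 0 were lower on LN111 than on LN511. Without scaling, 11 were lower on LN511 than on Mat and 0 on LN111 than on LN511; the median over all probes moved to 0.879 (coatings against MH), 0.789, 0.435 and 1.361 (LN111, LN511 and Mat against MH), -0.589 (LN111 against Mat), -0.963 (LN511 against Mat) and 0.343 (LN111 against LN511). With the slide as a block 0 were lower on LN511 than on Mat, where 3 of all 22345 probes were, and Mat then has 1 array beside LN511. Within slide 2, a fit added after seeing the data, Acta2 was at -2.31 log2 for LN511 against Mat, which equals the blocked value by construction. Leaving out each array gave 2 to 8 lower on LN511 than on Mat, 0 to 3 lower on LN111 than on LN511, and 0 to 1 lower on LN511 than in MH. With the replicate block, whose pairing is not established, 3 were higher and 10 lower on LN511 than on Mat. In the other comparisons the numbers are only shared. There the block called 12 higher and 4 lower for LN111 against LN511, and 0 for LN111 against Mat. Against MH it called 16, 16, 11 and 15 higher for the mean of the coatings, LN111, LN511 and Mat. The causes were not tested. Actg2, Tagln, Tpm2, Myh11, Cnn1 and Lmod1 were near background in MH, which limits their fold changes.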
